A study of Mus musculus with 8 samples.

Results

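The genes described here are 10 of the 16791 genes in a table of UMI (unique molecular identifier) counts from single EC of the mouse heart: 3 stress-inducible chaperone genes (Hspa1a, Hspa1b and Dnajb1) and 7 that resting cells also transcribe, called constitutive here although several respond to stress too (Hspb1, Hspa8, Hsp90aa1, Hsp90ab1, Hsph1, Hspd1 and Hspe1). They were picked by name, as main members of the heat shock protein families, and all 10 were in the table. The cells came from hearts of adult Pdgfb-iCreERT2-R26R-Brainbow2.1 mice, males and females of 8 to 10 weeks, which had all received tamoxifen at 150 mg/kg to switch on the Confetti reporter. In 4 mice (MI 244, 250, 255 and 256) the left anterior descending coronary artery was tied off 14 days later, and the hearts were taken at 7 days post-MI, 21 days after tamoxifen. The 4 healthy mice (Healthy 227, 228, 239 and 240) carried the same alleles and received the same tamoxifen but had no surgery. The MI mice were also anaesthetised, ventilated, opened at the chest and given buprenorphine. Effects of the operation and of the infarct therefore cannot be told apart. Ventricles of both groups were minced, digested for 20 min at 37 °C and sorted for CD31+ Confetti+ podoplanin- cells, so all cells had passed through warm enzyme and a sorter. The reporter marks cells in which the Pdgfb promoter had driven Cre, although cells with markers of other types were also in the libraries. A single 10X Chromium 3′ library was made per mouse. The labels do not pair healthy with MI mice, and p-values measure the spread between these mice.

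Heat shock proteins help other proteins reach and keep their fold. HSP70 proteins bind exposed hydrophobic stretches in cycles of ATP use that are started by J-domain partners and reset by exchange factors, HSP90 proteins act later on kinases and receptors, small heat shock proteins hold unfolding proteins without ATP, and the HSP60 and HSP10 pair encloses proteins in mitochondria. Heat, oxidants or loss of blood flow free heat shock factor 1 from the chaperones that hold it, and the factor then binds heat shock elements, arrays of the short unit nGAAn in alternating direction, before the inducible genes. The same genes are known to be transcribed in many tissues while they are taken apart into single cells.

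The start regions of the genes show how close the inducible pair is and where the elements lie. Hspa1a (chr17:34969190-34972156, minus strand, GRCm38) and Hspa1b (chr17:34956436-34959238, minus strand) both have 1 exon and encode the same inducible HSP70, with 9951 bases between them. The promoter table, from RefSeq for GRCm38.p6, holds 7 of the 10 genes. The search was for 2 facing units, GAANNTTC or TTCNNGAA, on both strands, from 250 bases before to 50 bases after each start, and 4946 of 32851 such promoters (15.1%) hold 1. Of the 7 genes, 6 held at least 1 and Dnajb1 held none. An array of 3 units (GAANNTTCNNGAA or TTCNNGAANNTTC, which contain the pairs) was in 198 of 32851 promoters (0.603%) and in those of 3 genes, Hsph1, Hspd1 (1 of 2 entries) and Hspe1. The windows of Hspd1 and Hspe1 overlap and hold the same array. The upstream sequences of the 2 inducible HSP70 genes, of Hspb1, which differed most between the groups, and a window of Hspe1 are given 5′ to 3′ on the strand of the gene, with matches in capitals. They lie at chr17:34972157-34972406 (Hspa1a), chr17:34959239-34959488 (Hspa1b), chr5:135887669-135887918 (Hspb1) and chr1:55088051-55088080 (Hspe1).
Hspa1a: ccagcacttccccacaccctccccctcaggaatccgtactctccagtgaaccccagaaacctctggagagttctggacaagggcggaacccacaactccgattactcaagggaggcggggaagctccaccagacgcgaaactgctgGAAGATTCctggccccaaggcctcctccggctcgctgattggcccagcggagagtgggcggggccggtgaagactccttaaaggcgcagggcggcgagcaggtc
Hspa1b: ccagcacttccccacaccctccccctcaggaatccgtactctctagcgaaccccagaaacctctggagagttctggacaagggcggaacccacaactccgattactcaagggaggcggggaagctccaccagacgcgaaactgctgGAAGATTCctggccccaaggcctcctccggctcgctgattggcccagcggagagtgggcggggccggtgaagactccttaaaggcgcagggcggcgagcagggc
Hspb1: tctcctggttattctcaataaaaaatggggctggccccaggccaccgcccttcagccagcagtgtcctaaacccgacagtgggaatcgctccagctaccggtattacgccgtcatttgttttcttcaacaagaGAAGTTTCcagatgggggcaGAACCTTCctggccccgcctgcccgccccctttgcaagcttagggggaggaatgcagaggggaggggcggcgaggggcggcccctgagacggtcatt
Hspe1: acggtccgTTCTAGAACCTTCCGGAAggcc
The first 2 sequences were identical at 247 of 250 bases (98.8%), and in both the match began at -104, counted from the gene start in that table. Hspb1 held 2 pairs, which began at -117 and -97, and Hspe1 held 3 overlapping pairs that began at -89, -84 and -79. A match describes the letters only.

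The other genes are spread over the genome, and their UMIs are not all unique to them. Dnajb1 (chr8:83608193-83612653, plus strand, 3 exons), Hspb1 (chr5:135887919-135889563, plus, 3 exons), Hspa8 (chr9:40800984-40810087, plus, 9 exons), Hsp90aa1 (chr12:110690605-110702728, minus, 11 exons), Hsp90ab1 (chr17:45567775-45573271, minus, 11 exons) and Hsph1 (chr5:149614287-149636376, minus, 18 exons) lie apart. Hspd1 (chr1:55077835-55088243, minus, 12 exons) and Hspe1 (chr1:55088132-55091307, plus, 4 exons) are divergent neighbours whose 5′ ends overlap by 112 bases. The last 500 bases of each transcript, where a 3′ library reads, hold 426 windows of 75 bases. Of these windows, 80.8% for Hspa8 and 39.0% for Hspe1 also occur in transcripts of other genes. The share was 10.3% for Hspb1 and 2.35% for Hsp90ab1. It was 0 for the other 6 genes, the near-identical Hspa1a and Hspa1b included, whose transcripts differ near their 3′ ends. Values of Hspa8 and Hspe1 are therefore uncertain by the reads the counting could not place.

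Some healthy cells are present more than once. Healthy 228 shared 2041 barcodes with Healthy 239, of which 2030 held nearly the same UMIs, and Healthy 227 shared 316 with Healthy 228, of which 301 did. Such copies were 55.3% of all cells in the Healthy 228 library and 10.9% in that of Healthy 227. Healthy 239 and 240 held 2 copies, and the other pairs of mice shared 10 to 40 barcodes and no copied cell. Copies were kept. With the copied cells left out, 4 of the 10 genes were still called over all EC, and values without copies are given beside several of the results. Depth differed with the group: total UMIs were 6764977 to 8793655 in healthy and 15865234 to 27244947 in MI libraries, and the median EC held 1472 to 2074 and 3395 to 4677. After 2508 cells with markers of other types had been left out, 28520 EC remained, in which the 11 pan-endothelial markers summed to 83.4 to 91.8 UMIs per 10000 in healthy and 80.0 to 84.9 in MI mice, none of them at 0. The 14 haematopoietic markers summed to 0.250 to 1.66 in healthy and 2.86 to 5.002 in MI mice, none at 0, and their part in the results was not tested. Levels are UMIs per 10000 UMIs of EC thinned at random to 1000 UMIs per cell, for which 26924 EC were deep enough (1596 healthy cells and 0 MI cells were shallower). Fewer transcripts per cell and fewer transcribing cells cannot be told apart in such a sum over a mouse.

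The first comparison asks whether chaperone transcripts differ between EC of healthy hearts and of hearts at 7 days post-MI. Hspb1 and Hsp90ab1 were lower in every MI mouse than in every healthy mouse, Hsp90aa1 and Hspa1b were also called lower in MI, and no gene of the 10 was called higher. In edgeR's quasi-likelihood test on counts summed per mouse, with Benjamini-Hochberg adjustment over 12222 genes, 4 of the 10 genes were called, all lower in MI. DESeq2 called 6, with Hspa1a (-0.63, adjusted p = 0.034) and Hsph1 (-0.40, adjusted p = 0.041) added, and edgeR called 5 in cells with at most 10% mitochondrial UMIs, with Hsph1 added (-0.44, adjusted p = 0.043). Of all genes tested 38.6% were called, 19.5% higher and 19.1% lower in MI, so the share called among the 10 was close to that of all genes. The exact permutation test over the mice, used for single values, has 70 splits and cannot go below p = 0.0286.

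Hspb1 encodes HSP27, a small heat shock protein that binds unfolding proteins and actin and is abundant in endothelium and muscle. It was measured at 18.6, 16.1, 15.2 and 13.0 UMIs per 10000 in Healthy 227, 228, 239 and 240, and 5.37, 8.32, 4.80 and 8.32 in MI 244, 250, 255 and 256. The lowest healthy mouse stood well above the highest MI mouse. The means were 15.7 ± 2.33 and 6.70 ± 1.88 (SD, n = 4 each), a ratio of healthy to MI of 2.34 (two-sided exact permutation test, p = 0.0286), and 69.3% and 41.8% of EC held at least 1 UMI at equal depth. At full depth, where the MI cells held more UMIs each, these shares were 83.8% and 81.0%. In haematopoietic cells of the same sorts, which should hold little HSP27, the level was 2.21 ± 1.13 in healthy and 1.76 ± 0.562 in MI mice. The log2 fold change of MI over healthy was -1.41 (SE 0.19, edgeR adjusted p = 0.00071). It was -1.39 without the copied cells, -1.42 with both partners of each copy left out, and between -1.28 and -1.53 with any 1 mouse left out.

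The cytosolic HSP90 pair moved in the same direction by less. Hsp90ab1 encodes the HSP90 that most cells make at a steady level. It stood at 18.9, 17.97, 17.4 and 17.3 UMIs per 10000 in the healthy mice (in the order above) and at 12.2, 13.7, 13.0 and 13.1 in the MI mice. The mice of a group differed little from each other, at 17.9 ± 0.774 against 13.0 ± 0.642 (SD, n = 4 each), and the groups stood apart with no overlap (exact permutation test, p = 0.0286), and 77.4% and 69.4% of EC held a UMI. Hsp90aa1 encodes the HSP90 that also responds to stress. It was at 4.99, 6.77, 5.68 and 6.52 in healthy and 3.78, 5.07, 3.44 and 4.54 in MI mice, where MI 250 lay just above Healthy 227 (5.99 ± 0.811 against 4.21 ± 0.738, exact permutation test, p = 0.0571). The log2 fold changes were -0.53 for Hsp90ab1 (SE 0.07, edgeR adjusted p = 0.00063) and -0.62 for Hsp90aa1 (SE 0.12, adjusted p = 0.0036). Hspb1, Hsp90aa1 and Hsp90ab1 kept their calls in all 17 alternatives run on this comparison.

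Of the inducible genes, edgeR called Hspa1b and not Hspa1a or Dnajb1. Hspa1a, the more abundant transcript of inducible HSP70 in these cells, was at 12.6, 16.3, 13.8 and 10.1 UMIs per 10000 in the healthy and 10.2, 15.1, 6.20 and 11.8 in the MI mice. The groups overlapped widely, at 13.2 ± 2.56 against 10.8 ± 3.71 (SD, n = 4 each; exact permutation test, p = 0.371), and the log2 fold change of -0.64 was not called (edgeR adjusted p = 0.078). Hspa1b was at 1.89, 2.86, 1.61 and 1.01 in healthy and 0.752, 1.29, 0.490 and 1.498 in MI mice, so MI 250 and MI 256 lay within the healthy range. Its log2 fold change was -1.22 (SE 0.41, edgeR adjusted p = 0.037), and the call held in 10 of 17 alternatives. Without Healthy 228, the mouse with the highest level and the most copies, it was -0.84 (adjusted p = 0.12), and with the copied cells left out -1.44 (adjusted p = 0.037). The edgeR call was also lost without Healthy 227 (adjusted p = 0.058), Healthy 239 (0.051), MI 244 (0.098) or MI 255 (0.079). At equal depth, in cells thinned to 1000 UMIs, it was -0.95 and not called (0.064), and with cells above the median of immediate early UMIs left out it was -1.03 and not called (0.10). Dnajb1, the J-domain partner of inducible HSP70, was at 0.589, 1.04, 0.985 and 1.05 in healthy and 0.977, 1.25, 0.886 and 0.868 in MI mice, with a log2 fold change of -0.04 (adjusted p = 0.86). The 3 inducible genes summed to 12.2 to 20.2 UMIs per 10000 in healthy and 7.58 to 17.7 in MI mice.

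The other constitutive genes were not called by edgeR over all EC. Hspa8, the constant HSP70 of the cytosol that also uncoats clathrin, was at 9.19, 17.3, 22.4 and 20.04 UMIs per 10000 in healthy and 13.5, 15.4, 16.1 and 12.7 in MI mice, with Healthy 227 below every MI mouse. Its log2 fold change of -0.31 had an edgeR adjusted p of 0.31, which became -0.52 and 0.014 without Healthy 227. Leaving out the copies changed the healthy mean of Hspa8 from 17.2 to 15.7 UMIs per 10000, against 14.4 in MI mice, and the difference of MI minus healthy went from -2.79 to -1.25 (log2 fold change -0.22, edgeR adjusted p = 0.54). Hsph1, which encodes HSP110, an exchange factor of HSP70, was near the detection limit at 0.130 to 0.211 in healthy and 0.114 to 0.155 in MI mice (log2 fold change -0.41, adjusted p = 0.056). The mitochondrial chaperonin genes overlapped between the groups. Hspd1 (HSP60) was at 1.07 to 1.24 in healthy and 0.802 to 1.10 in MI mice (log2 fold change -0.23, adjusted p = 0.16). Hspe1 (HSP10), which caps the HSP60 ring, was at 1.48 to 1.76 and 1.504 to 1.69 (log2 fold change 0.03, adjusted p = 0.82). By the mice alone, 2 of the 10 genes did not overlap between the groups, both lower in MI, against 10.6% of 7115 genes in that direction and 29.3% in either. Without Healthy 227, 5 did not overlap (Hspb1, Hspa8, Hsp90aa1, Hsp90ab1 and Hspd1), all lower in MI, against 12.8% of 7079 genes in that direction.

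**Figure D1:**
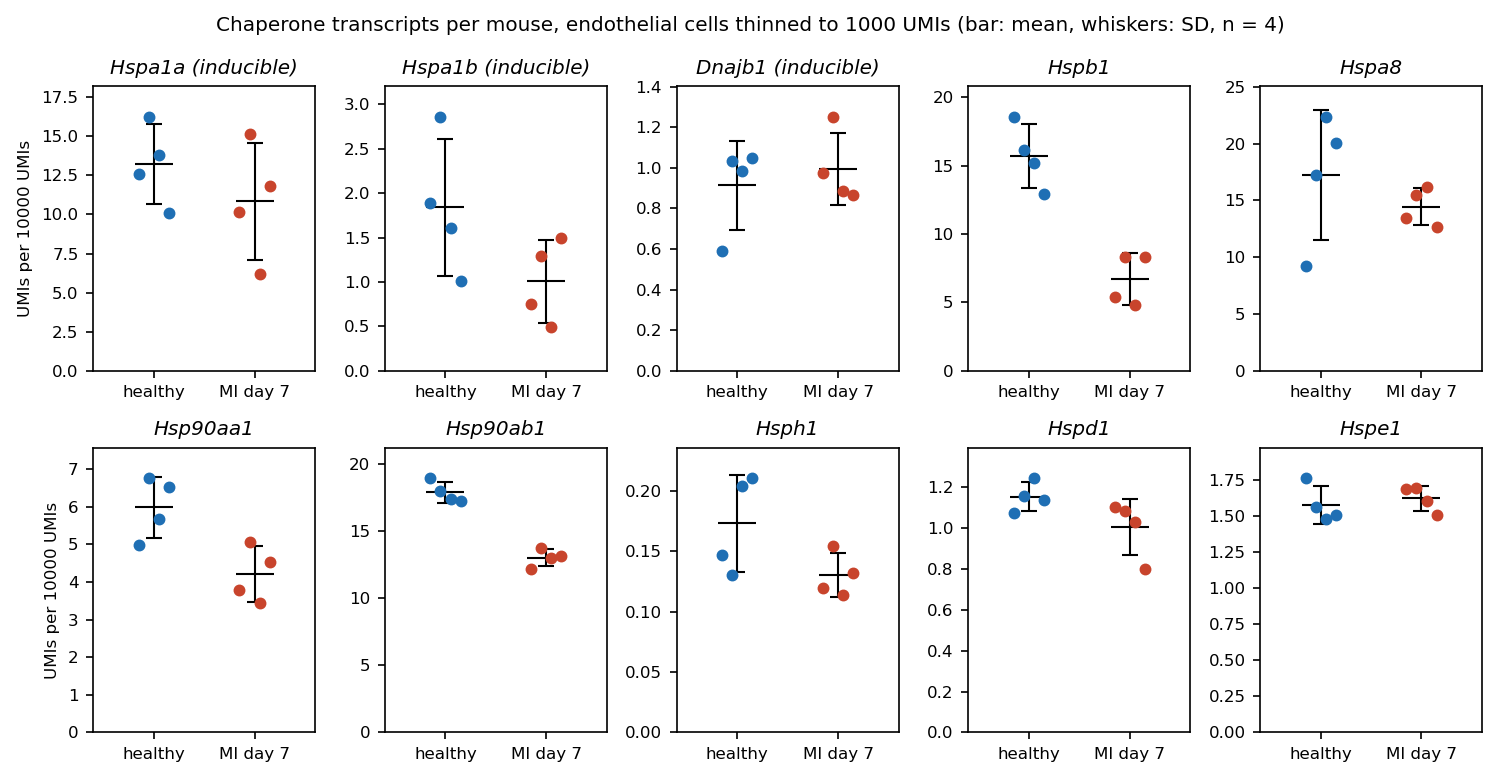
Each panel plots 1 gene, with 1 point per mouse, as UMIs per 10000 UMIs of EC thinned to 1000 UMIs each (linear axis from 0, own scale per gene), and bars and whiskers give the mean and SD of the 4 healthy and 4 MI mice. The points of Hspb1 (healthy 13.0 to 18.6, MI 4.80 to 8.32) and Hsp90ab1 (17.3 to 18.9 and 12.2 to 13.7) stand apart by group, while those of Hspa1a, Dnajb1 and Hspe1 are mixed.

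Other genes of the chaperone network, taken from lists rather than from their values, moved both ways. The shares of all genes to read these counts against are 19.5% higher and 19.1% lower, and most lists were near them. Of 14 other stress-inducible chaperones and co-chaperones tested, 2 were called higher and 4 lower in MI, with a median log2 fold change of -0.25 against -0.02 over all genes. Fkbp4, an immunophilin that works with HSP90, was the called gene of that list with separate groups and fell by 1.02 on the log2 scale (SE 0.09, edgeR adjusted p = 0.00010). Of 14 other HSP70 and exchange-factor genes, 4 were higher and 3 lower (median 0.17). Bag5 (-0.86) and St13 (-0.66), which bind HSP70, were lower, and Bag1 (0.44), an exchange factor, was higher. Of 19 other J-domain genes, 4 were higher and 5 lower (median -0.10), with Dnajb2 (-0.999), Dnajc21 (-0.87) and Dnaja4 (-0.84) lower. Of 12 HSP90 co-chaperones, 3 were higher and 2 lower (median -0.03), Ppp5c (0.38) and Fkbp8 (0.30) among those higher. Among the 6 heat shock factors and regulators tested, Nfe2l2, the factor of the oxidant response, was lower (-0.31) and the other 5 were not called. The list of small heat shock proteins other than Hspb1 had 2 of 3 tested genes higher (Hspb11, 0.41). That list is not the whole family, as Cryab and Hspb8 were placed in the stress-inducible list. The TRiC ring that folds actin and tubulin had 1 of 7 higher (Tcp1, 0.33). Prefoldin had 1 higher (Pfdn4, 0.28) and 1 lower of 7, and the mitochondrial list 1 of 9 lower (Clpp, -0.30).

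Hspa1a was far from evenly spread over EC, and 8 of the 10 genes were higher in cells with many immediate early transcripts such as Fos, Jun and Egr1. In the median mouse, the variance of Hspa1a over EC at equal depth was 4.37 times its mean (range 4.04 to 5.82). The medians of the other 9 genes were 1.03 to 1.72. Hspd1 (1.03), Hsph1 (1.04) and Hspe1 (1.05) were close to the value of 1 that counting alone gives. Genes with so few UMIs lie near that value whatever their spread, so these 3 cannot be compared with Hspa1a. Hspb1 (1.72), Hspa8 (1.31) and Hsp90ab1 (1.26) had levels nearer to that of Hspa1a. The most loaded 10% of cells held 56.1% of the Hspa1a UMIs (48.3 to 72.4%), and 8.09% of cells (3.33 to 12.2%) held 5 or more. Within a mouse, over cells of the same library and equal depth, the pairs with the highest Pearson correlation were Hspa1a with Hsp90aa1 (median r = 0.32), with Hspa1b (0.31) and with Hspb1 (0.26). Correlations of genes with few UMIs are kept low by counting, which limits this order.

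EC with at least 10 UMIs of 11 immediate early genes (7481 cells, IEG-high) were compared with the other EC of the same mouse. Of the 10 genes, 8 were higher and 2 lower in IEG-high cells, against 13.8% and 17.8% of 11172 genes (31.6% in either direction). Hspa1a rose most, from 2.31 to 8.19 UMIs per 10000 in IEG-low to 16.3 to 35.3 in IEG-high cells of the same mice, a ratio of 4.17 to 11.8. No IEG-high value of any mouse overlapped an IEG-low value. The log2 differences were 2.33 for Hspa1a, 1.75 for Dnajb1 and 1.42 for Hspa1b, followed by 1.14 for Hsp90aa1, 0.82 for Hspb1, 0.78 for Hsph1, 0.48 for Hspa8 and 0.43 for Hsp90ab1 (edgeR with the mouse as a block, largest adjusted p of these 8 genes 2.8e-05). Each was higher in 8 of 8 mice, apart from Hsph1 in 7 of 8. The ratio of Hsph1 was 0.857 to 1.84 in healthy and 2.18 to 3.17 in MI mice, with a log2 difference of 0.21 in healthy mice alone (adjusted p = 0.42) and 1.07 in MI mice alone (adjusted p = 7.7e-08), and the difference between the groups was not tested. Hspe1 (-0.18, adjusted p = 0.00051) and Hspd1 (-0.12, adjusted p = 0.0496) were lower, and the call of Hspd1 was kept in 1 of 14 alternatives. With the copied cells left out the other 9 calls held, and Hspd1 was at -0.10 (adjusted p = 0.13). The inducible genes led the order, and the mitochondrial pair stood at its end.

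Immediate early transcripts themselves summed to 49.9 to 96.8 UMIs per 10000 at equal depth in healthy and 69.7 to 89.1 in MI mice, so the groups overlapped in them, and Healthy 227 was the lowest of all. Cells were set side by side at matched immediate early counts, in 5 ranges (0 to 1, 2 to 4, 5 to 9, 10 to 19, and 20 or more UMIs). From the lowest to the highest range, Hspa1a went from 1.94 to 42.4 in healthy mice, and in MI mice from 1.85 to 37.9, and the mice overlapped in all 5 ranges. Hspb1 went from 11.9 to 25.3 in healthy mice, and in MI mice from 4.48 to 13.7, and the 4 MI mice were below the 4 healthy mice in 5 of 5 ranges. The same held for Hsp90ab1 (14.5 to 24.9 and 10.8 to 17.4) in 5 of 5 and for Hsp90aa1 (2.88 to 12.8 and 2.47 to 9.14) in 4 of 5. Over all genes, 7.66, 8.63, 6.03, 5.49 and 4.6% were lower in all MI mice in these ranges, and 12.5, 12.7, 10.2, 9.32 and 7.77% were higher. Dnajb1 in the fourth range and Hsph1 in the fifth were higher in all MI mice. The lower Hspb1 and Hsp90ab1 of MI mice were seen in cells with hardly any immediate early UMIs too.

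**Figure D2:**
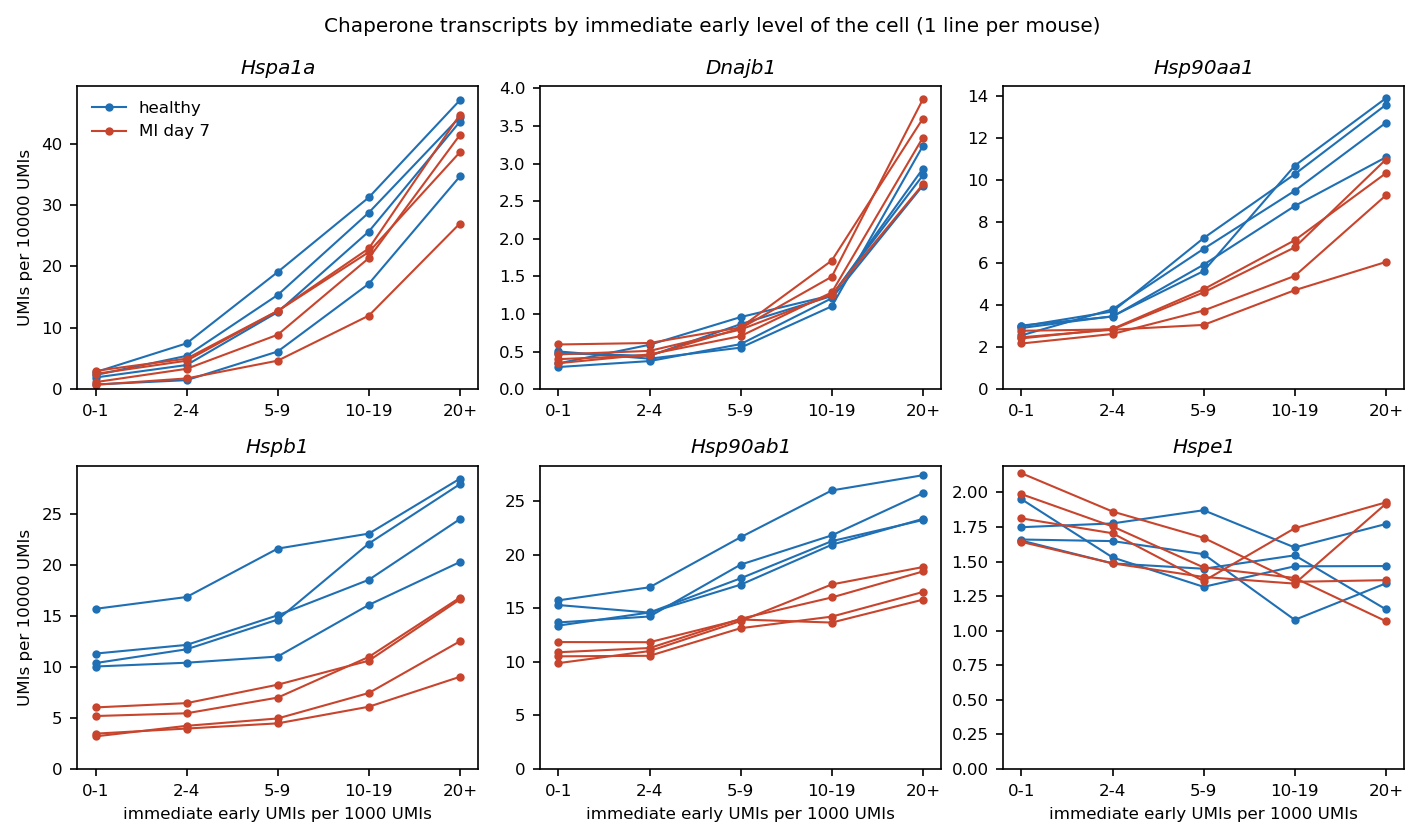
Each panel plots 1 of 6 genes as UMIs per 10000 UMIs (linear axis from 0) against the immediate early UMIs of the cell per 1000 UMIs, with 1 line per mouse (blue healthy, red MI). Lines of Hspa1a and Dnajb1 climb together in both groups, those of Hspb1 and Hsp90ab1 climb in 2 separate bands, and those of Hspe1 do not climb.

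Classes of EC were cut by UMIs of marker genes at equal depth, so each is a range of marker counts and not a cell type: arterial (at least 4 UMIs of 10 genes such as Gja4 and Sema3g, 2734 cells), venous (3, 1107 cells), Plvap-type (5, 1584), Apln-type sprouting (3, 688), interferon (5, 2416) and cycling (3, 1549). Many cells lay near each cut, for example 784 arterial cells at it and 1333 cells 1 UMI below. The 18153 EC that reached no cut are called unmarked; their marker counts are mainly those of capillaries. Each class was compared with unmarked cells of the same mice, with the mouse as a block. The mean immediate early count per cell, pooled over mice that gave unequal shares of each class, was 10.5 in arterial, 9.98 in venous, 8.77 in interferon, 7.72 in unmarked, 6.62 in Plvap-type, 5.004 in cycling and 4.97 in Apln-type cells.

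In arterial cells, 3 of the 10 genes were higher and 3 lower than in unmarked cells, against 15.6% and 16% of all genes. Hspa1a was at 19.2 ± 2.39 UMIs per 10000 in healthy and 14.7 ± 3.70 in MI arterial cells, against 12.6 ± 2.91 and 11.4 ± 3.80 in unmarked cells (SD, n = 4 each), higher in 8 of 8 mice (log2 difference 0.43, edgeR adjusted p = 2.3e-07). Dnajb1 (0.25) and Hsp90ab1 (0.11) were also higher, and Hspb1 (-0.12), Hspd1 (-0.21) and Hspe1 (-0.23) were lower. Hspb1 was at 14.5 in arterial against 16.0 in unmarked cells of healthy mice, and at 7.10 against 7.07 in MI mice. It was not higher in 6 of 8 mice, and its call was kept in 11 of 15 alternatives. In interferon cells 5 genes were higher and 0 lower, against 7.87% and 4.71% of all genes. They were Hspa1a (0.31, higher in 8 of 8 mice), Dnajb1 (0.19, 6 of 8), Hsp90aa1 (0.14, 6 of 8), Hspb1 (0.11, 6 of 8) and Hspa8 (0.09, 5 of 8). Hsp90ab1 was higher in 8 of 8 mice and Hsph1 in 7 of 8 without being called. With 1 mouse left out, between 1 and 7 genes were called. Of 15 alternatives, 13 kept the call of Hspa1a, 11 that of Hsp90aa1, 8 those of Dnajb1 and Hspb1 each and 7 that of Hspa8. In venous cells Dnajb1 (0.32, a call kept in 7 of 15 alternatives) and Hsph1 (0.71) were higher and Hspa1a (-0.29, in 6 of 8 mice) lower, against 11.1% and 9.25% of all genes. With IEG-high cells left out of both sides, a setting chosen after seeing the data, Hspa1a was 0.12 in arterial (adjusted p = 0.15) and 0.10 in interferon cells (adjusted p = 0.28), no gene of the 10 was called higher in arterial, venous or interferon cells, and arterial Hspb1 (-0.23), Hspd1 (-0.25) and Hspe1 (-0.25) stayed lower.

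In cycling and Apln-type cells, and in Plvap-type cells of MI mice, the transcripts of inducible HSP70 were lower than in unmarked cells. In cycling cells Hspa1a was at 3.70 ± 1.86 UMIs per 10000 in healthy against 5.14 ± 2.32 in MI mice (SD, n = 4 each), below unmarked cells in 8 of 8 mice (log2 difference -1.49, edgeR adjusted p = 8.0e-07). Hspa1b (-1.13), Hspb1 (-0.996) and Hsp90ab1 (-0.33) were lower as well, while Hsp90aa1 (0.57) and Hspd1 (0.39) were higher, so that 4 were lower and 2 higher, against 23.7% and 22% of all genes. Hsp90aa1 reached 10.6 ± 2.27 in healthy and 6.12 ± 0.583 in MI cycling cells, its highest level of the 7 sets of EC. In Apln-type cells (3 healthy and 4 MI mice with at least 20 cells) Hspa1a and Hspa1b were both at -0.99, Dnajb1 at -0.34 and Hspb1 at -0.25, while Hspd1 (0.50), Hspe1 (0.40) and Hsph1 (0.65) were higher, 4 lower and 3 higher against 7.33% and 8.44% of all genes. Hsph1 was at 0.915 in Apln-type against 0.149 in unmarked cells of healthy mice, and at 0.147 against 0.122 in MI mice. This difference between the groups was not called by the interaction term, where Hsph1 had an unadjusted edgeR p under 0.05. The call of Hsph1 against unmarked cells was kept in 6 of 16 alternatives, that of Dnajb1 in 7 and that of Hspb1 in 9. Without the copied cells, which leaves 2 healthy mice, Hsph1 was at 0.61 (edgeR adjusted p = 0.052). In Plvap-type cells Hspa1b (-0.91), Hspa1a (-0.81) and Hsp90aa1 (-0.38) were lower and Hsph1 (0.86) was higher over all mice, against 13% and 11.7% of all genes. By an interaction term (given below), the gap was called as different between the groups for Hspa1a, and no such difference was called for Hspa1b. In MI mice Hspa1a was at 4.72 in Plvap-type against 11.4 in unmarked cells and Hspa1b at 0.426 against 1.11. In healthy mice they were at 12.1 against 12.6 and at 1.76 against 1.88, and healthy mice alone gave 0 calls of the 10 genes (edgeR, with 6 at an unadjusted p under 0.05), with Hspa1a at -0.31 (adjusted p = 0.21) and Hspa1b at -0.61 (0.18), against a median of -0.22 over all genes. Hsph1 was higher in 5 of 8 mice, with 3 of the 4 healthy Plvap-type sums at 0 UMIs after thinning, and its log2 difference was 0.92 in MI mice alone (adjusted p = 0.0018) and 0.020 in healthy mice alone (adjusted p = 0.999). Of the 7 TRiC genes tested, 6 were higher in Apln-type and 5 in cycling cells, and none in Plvap-type cells.

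The lower values of Hspa1a and Hspa1b in these 3 classes were still called when IEG-high cells were left out. Hspa1a was then -1.09 in cycling, -0.63 in Apln-type and -0.73 in Plvap-type cells, and Hspa1b -0.93, -0.90 and -0.88, all called. The calls of Dnajb1 (0.084) and Hspb1 (-0.078) in Apln-type cells and of Hsp90aa1 in Plvap-type cells (-0.16) were lost, and the value of Dnajb1 changed sign. Hsp90aa1 was higher in cycling cells (0.92) and, in this setting, in Apln-type cells too (0.30, edgeR adjusted p = 0.0031, against -0.02 in all cells). Dnajb1 was higher in cycling cells (0.51). With the 47 of 688 Apln-type cells that were also cycling left out, Hspa1a (-0.93), Hspa1b (-0.92), Hspd1 (0.53) and Hspe1 (0.45) kept their calls. Only 1 healthy mouse had 20 Plvap-type cells once IEG-high cells were left out, so the Plvap-type value rests on 1 healthy and 4 MI mice.

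**Figure D3:**
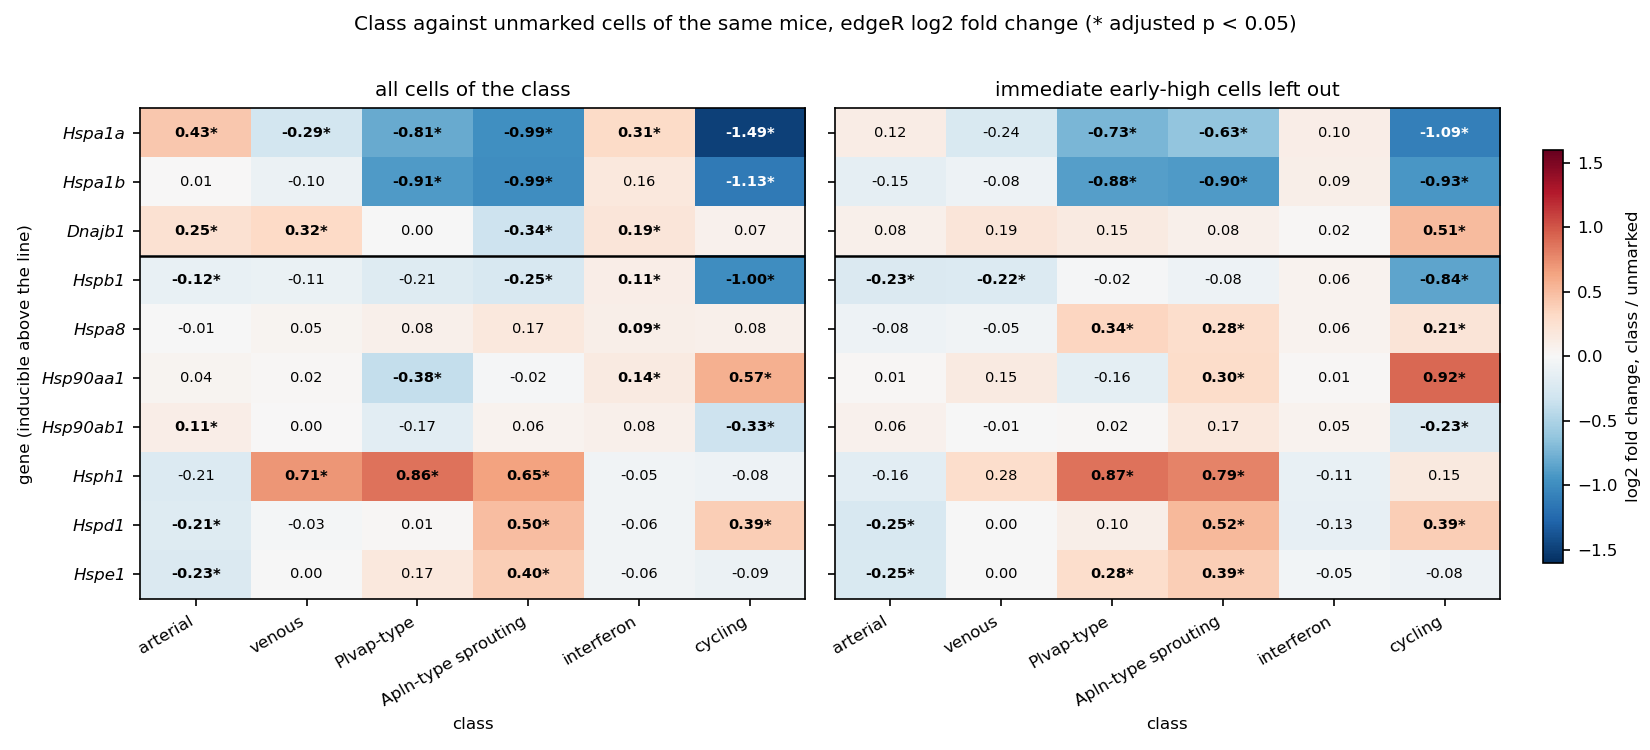
Each cell of the maps gives the edgeR log2 fold change of a gene in a class over unmarked cells of the same mice, over all EC and with IEG-high cells left out (rows: genes, inducible above the line; colour scale in log2 units, asterisk for adjusted p below 0.05). Hspa1a is 0.43 in arterial and -1.49 in cycling cells over all EC, and 0.12 and -1.09 with IEG-high cells left out.

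Within each class, EC of MI mice were then compared with EC of healthy mice. The mix of classes differed, as unmarked cells were 75.4 to 80.9% of EC in healthy and 48.4 to 68.8% in MI mice. Hspb1 (log2 fold changes -1.04 to -1.54) and Hsp90aa1 (-0.60 to -0.88) were called lower in all 7 sets of cells. The 6 classes share cells (540 of 1107 venous, 550 of 1584 Plvap-type and 604 of 2416 interferon cells were also in another class), so these are not separate results. Hsp90ab1 was called lower in all but Plvap-type cells (-0.22, edgeR adjusted p = 0.50). The call of Hsp90aa1 in Apln-type cells was kept in 4 of 11 alternatives and that of Hsp90ab1 in cycling cells in 3 of 11. In unmarked cells these 3 were the only called genes of the 10, against 16.7% of all genes lower and 16.8% higher, with Hspb1 at 16.0 ± 2.30 UMIs per 10000 in healthy against 7.07 ± 1.83 in MI mice (SD, n = 4 each). Arterial cells had 7 genes lower and 0 higher in MI, against 7.33% and 6.74% of all genes, which added Hspa1a (-0.67), Hspa1b (-1.10), Hsph1 (-0.94) and Hspd1 (-0.38). Of 11 alternatives, 11 kept the call of Hspa1a, 10 that of Hspa1b, 3 that of Hspd1 and 2 that of Hsph1. Venous cells had 4 lower (4.34% of all genes lower, 3.51% higher), interferon cells 4 (7.86% and 6.88%) and cycling cells 3 (2.46% and 1.97%). The venous and the interferon calls included Hspa1b, kept in 3 and 5 of 11 alternatives. Apln-type cells had 5 lower (2.15% of all genes lower, 1.71% higher), and Plvap-type cells 4 lower and 1 higher (5.17% and 5.54%). The Plvap-type calls included Hspa1a and Hspa1b lower and Hspe1 higher, kept in 9, 6 and 4 of 10 alternatives. Without the copied cells, 1 call was left in Plvap-type (Hspb1, -1.19) and 1 in cycling cells (Hspb1, -1.03), and 3 in Apln-type cells (Hspb1 -1.15, Hspa8 -1.003 and Hsp90ab1 -0.80). In Plvap-type and Apln-type cells these values rest on 2 healthy mice, since the others then had fewer than 20 cells.

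**Figure D4:**
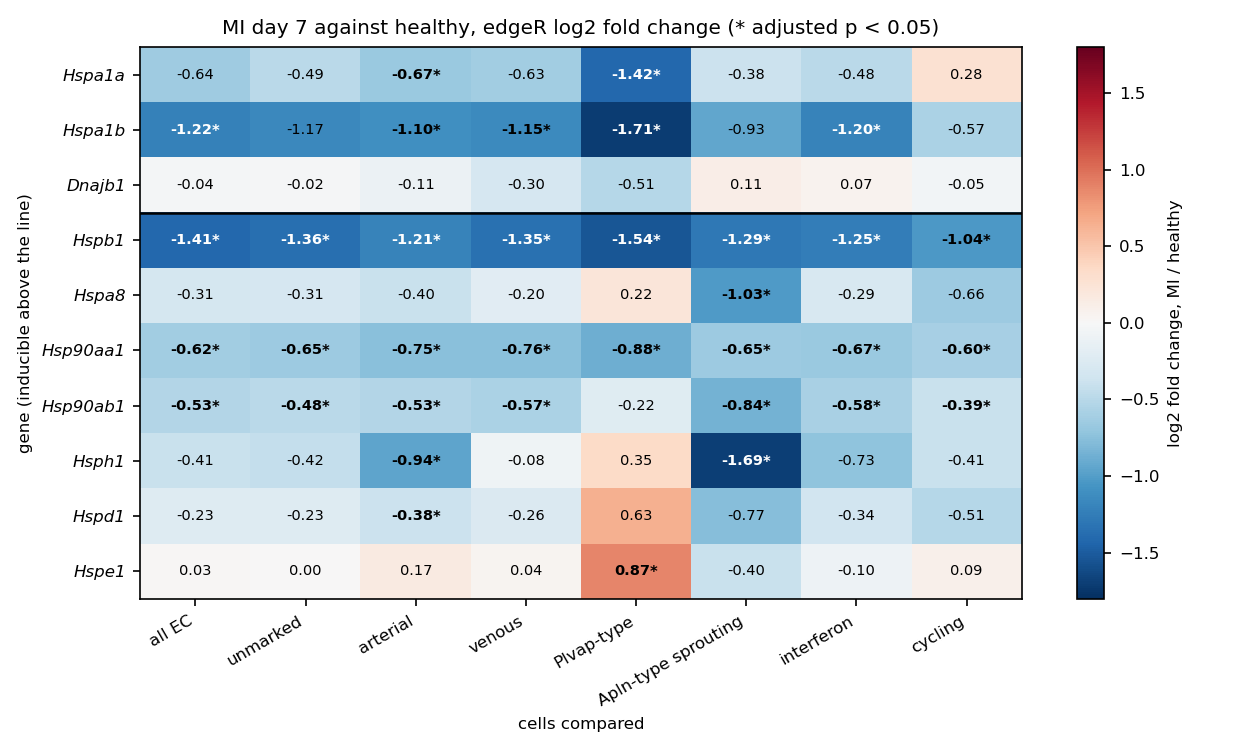
Each cell of the map gives the edgeR log2 fold change of MI over healthy for a gene (rows, inducible above the line) in all EC or in a class (columns), with an asterisk for adjusted p below 0.05. The rows of Hspb1 (-1.04 to -1.54) and Hsp90aa1 (-0.60 to -0.88) are blue throughout, and Hspe1 is at 0.87 in Plvap-type cells and 0.03 in all EC.

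Hspa8 was high in healthy Apln-type cells. It was at 27.1, 25.9 and 26.9 UMIs per 10000 in Healthy 228, 239 and 240, and at 13.4, 15.5, 17.5 and 11.8 in MI 244, 250, 255 and 256, with a wide gap between the groups (log2 fold change -1.03, edgeR adjusted p = 0.00015). Hsph1 in these cells was at 0.857, 1.15 and 0.741 in healthy and 0.0592, 0.195, 0.0855 and 0.250 in MI mice (-1.69, adjusted p = 0.035), from few UMIs, a call kept in 2 of 7 alternatives. Healthy mice had 35, 61 and 54 Apln-type cells and a further mouse, Healthy 227, had 18 and was left out. Over all EC this was the mouse with the lowest Hspa8, below every MI mouse, so the gap in Apln-type cells is one without it. Healthy 228 had fewer than 20 once its copies were left out, so its value is not independent of that of Healthy 239, and the values without copies rest on Healthy 239 and 240. In cycling cells of the same 3 healthy mice Hspa8 was at 24.4, 28.4 and 23.6, so neither class was above the other in every mouse.

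Whether the MI effect itself differed between a class and unmarked cells was tested by an interaction term. In arterial cells, the class chosen for this test, 0 of the 10 genes were called (1.61% of all genes), and 1, Hspb1, had an unadjusted p under 0.05 in both edgeR and DESeq2. The test was run on 3 more classes after their values had been seen. In Plvap-type cells 3 were called (2.51% of all genes). The difference of the log2 MI effect, Plvap-type less unmarked cells, was 0.67 for Hspa8 (edgeR adjusted p = 0.00064), 1.02 for Hspe1 (0.016) and -0.75 for Hspa1a (0.00072). Hspa8 in Plvap-type cells was at 10.0 to 21.8 UMIs per 10000 in healthy and 16.3 to 18.4 in MI mice, and Hspa1a at 8.57 to 16.7 and 2.80 to 6.77, on 21 to 38 healthy cells per mouse. The call of Hspa8 was kept in 10 of 10 alternatives, that of Hspa1a in 8 and that of Hspe1 in 6. Without the copied cells, with 2 healthy mice, this difference was -0.25 for Hspa1a (edgeR adjusted p = 0.69) and 1.15 for Hspe1 (adjusted p = 0.10). In cycling cells Hspa1a (0.86), Hspa1b (0.77) and Hspb1 (0.49) differed (6.89% of all genes), of which DESeq2 called 0 (for Hspb1 its p before adjustment was 0.021, for Hspa1a 0.058 and for Hspa1b 0.073). Of 10 alternatives, 8 kept the call of Hspa1a, 7 that of Hspb1 and 2 that of Hspa1b. In Apln-type cells Hspa8 differed by -0.43 (adjusted p = 0.046, 0.601% of all genes), a call kept in 3 of 10 alternatives.

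Over 47 sums of at least 50 cells (a mouse and a class each, which share libraries), the genes whose log2 CPM was most like that of the summed inducible genes, among 6264 genes, were Ly6c1 (Pearson r = 0.85), Slc26a10 (0.84), Cdkn1c (0.84), Fas (0.83) and Gstm1 (0.83). Hspa1a made up most of the inducible sum, a mean of 82.9% in healthy and 84.1% in MI mice over all EC at equal depth. The sums pool healthy and MI mice, and the part of the group difference in r was not tested. Hspb1 had r = 0.73 with the summed inducible genes, Hsp90ab1 0.55, Hsp90aa1 0.48, Hsph1 -0.05, Hspa8 -0.13, Hspd1 -0.26 and Hspe1 -0.57. The genes most like the summed constitutive genes were Gm6133 (0.87), Gm10263 (0.87), Lrrc8c (0.87), Malat1 (0.86) and Wdr89 (0.85), and Hspa1b had r = 0.58, Hspa1a 0.47 and Dnajb1 0.16.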

How the data were processed

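Single-cell libraries of CD31+ Confetti+ podoplanin- heart cells from 4 healthy mice and 4 mice at 7 days post-MI were analysed. The authors deposited 1 table of UMI counts, whole numbers without normalization, for 16791 genes in 31028 cells. The submitters' processing notes name Cell Ranger, mm10, R 3.5.2 and Seurat 2.3, and the authors kept cells with over 400 genes and under 20% mitochondrial UMIs. No column of per-sample values was left unused.

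The genes, gene lists and comparisons were chosen with earlier results of these data known, and the marker counts that cut the classes were set after their distributions had been seen. A cell was called a copy when its barcode recurred in another library and 90% or more of the UMIs in the smaller of both cells fell on the same genes in the other. Cells with at least 3 UMIs and 30 per 10000 of a list of another cell type (haematopoietic, pericyte or smooth muscle, fibroblast, platelet or erythroid, or lymphatic) were left out as not endothelial, and doublets were not called. Levels are from cells thinned at random to 1000 UMIs. Counts at full depth were summed per mouse, or per mouse and class of at least 20 cells, and tested with edgeR 4.0.16 in R 4.3.3 (TMM, filterByExpr, quasi-likelihood test, Benjamini-Hochberg adjustment at 0.05 over all genes), with the mouse as a block between classes. For levels per mouse an exact permutation test was used, two-sided and without adjustment over the 10 genes. The fits were tested on simulated data first. The rest was computed in Python 3.11.15 (matplotlib 3.10.9, pandas 2.3.3, scipy 1.17.1, numpy 2.4.6).

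The 10 genes were the ones examined in every comparison, but not every gene is named in each. Of 9 other chaperone lists, up to 3 called genes per list with the largest absolute log2 fold change, a mean of at least 20 CPM and no overlap between the groups are named. For likeness, the 5 genes with the highest Pearson r of log2(CPM + 20) over sums of at least 50 cells are named. Alternatives were DESeq2 1.42.0, no filter on low counts, thinning (to 500, 1000 or 2000 UMIs), copies left out, all deposited cells, a minimum of 800 genes per cell, a limit of 10% mitochondrial UMIs, other marker cuts, no replicate block, 1 group only and each mouse left out. Leaving out IEG-high or cycling cells, DESeq2 on the immediate early comparison and the interaction, and the interaction in 3 further classes were chosen after seeing the data. Depth and group go together in these libraries and cannot be told apart. Loci and transcripts are those of the GRCm38 annotation. Protein sequences were not used here.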

Additional observations from a re-analysis of the deposited data

Results flagged for a closer look

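Dnajb1 stood at 0.589 UMIs per 10000 in Healthy 227, far below the other 3 healthy mice, which lay between 0.985 and 1.05. Its gap to the nearest of them was 0.859 of the whole range, above Dixon's 95% limit for 4 mice. Chance alone would single out about 1 in 20 groups, and 20 were examined. Healthy 227 also had the fewest immediate early UMIs (49.9 per 10000, against 85.1 to 96.8 in the other healthy mice), whose part in this value was not tested.

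The MI effect differed between a class and unmarked cells, by an interaction term, for these genes on the log2 scale: in Plvap-type cells Hspe1 (1.02), Hspa8 (0.67) and Hspa1a (-0.75), in Apln-type sprouting cells Hspa8 (-0.43), and in cycling cells Hspb1 (0.49), Hspa1b (0.77) and Hspa1a (0.86). These classes held few healthy cells, with 21 to 38 Plvap-type cells per healthy mouse, and were picked after their values had been seen. Without the copied cells, Hspa8 in Plvap-type cells (0.84, with 2 healthy mice) and Hspa1a (0.77) and Hspb1 (0.51) in cycling cells were still called by edgeR. The other calls were lost: Hspa1b in cycling cells (0.61, edgeR adjusted p = 0.14), Hspa1a and Hspe1 in Plvap-type cells and Hspa8 in Apln-type cells.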

How the results depend on the processing

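Of 268 recomputed counts of calls, 221 stayed within 1.5 times the reported count, and 47 did not. Of 2478 recomputed values of single genes, 2203 kept their side of the threshold without a called value changing sign (130 of them changed sign but were not called in either fit), 215 lost the call, 58 gained it and 2 reversed. Both reversals came in Apln-type cells with IEG-high cells left out, a setting chosen after seeing the data, where Dnajb1 was 0.084 and Hsp90aa1 0.30. No paired analysis was possible because healthy and MI mice share no replicate number. Between classes of the same mice, the fit with no replicate block called 1 gene in arterial, 0 in venous, 2 in Plvap-type, 2 in Apln-type and 0 in interferon cells and 3 in the immediate early comparison. With IEG-high cells left out, the counts were 3 in arterial, 1 in venous and 0 in interferon cells. Healthy mice alone gave 0 calls in venous, 0 in Plvap-type and 1 in interferon cells. A cut of 1 more marker UMI gave 4 calls in Apln-type and 3 in interferon cells, and 2 for MI in Apln-type cells; for MI in Plvap-type cells it was not run, as too few healthy mice had 20 cells. DESeq2 called 4 genes in Apln-type cells and 0 in the cycling interaction. With copied cells left out, MI in Plvap-type cells gave 1 call, in Apln-type 3, in cycling 1, and the Apln-type interaction 0. Thinned cells gave 20 called genes in the chaperone lists. The cause of these moves was not tested. With 1 mouse left out, calls ranged from 3 to 5 over all EC and from 2 to 5 genes without overlap at equal depth. Against unmarked cells they ranged from 4 to 6 (arterial), 2 to 3 (venous), 4 to 4 (Plvap-type), 5 to 7 (Apln-type), 1 to 7 (interferon) and 6 to 6 (cycling), and from 9 to 10 in the immediate early comparison. For MI within a class they ranged from 4 to 7 (arterial), 2 to 4 (venous), 3 to 6 (Plvap-type), 3 to 6 (Apln-type), 3 to 5 (interferon), 0 to 4 (cycling) and 3 to 4 (unmarked). For the interactions they ranged from 0 to 0 (arterial), 2 to 5 (Plvap-type), 0 to 1 (Apln-type) and 1 to 4 (cycling), and for the chaperone lists from 26 to 38 genes. Single mice moved a count by over 1.5 times as follows: MI 244 (1), 250 (3) or 256 (3) for interferon against unmarked cells, Healthy 228 for MI in arterial (4) and cycling cells (0), Healthy 227 (2) or MI 255 (2) in venous, Healthy 228 (3) or 240 (3) in Plvap-type, and any of Healthy 228, 239, 240, MI 244 or 255 in Apln-type cells (3 each). The same held for the interactions in Plvap-type (MI 244, 255 or 256, 5 each), Apln-type (Healthy 228 or 239, MI 250, 255 or 256, 0 each) and cycling cells (Healthy 240 or MI 244, 1 each), and for genes without overlap at equal depth (Healthy 227, 5). Genes at or below 1 UMI per 10000, such as Hsph1, are limited by depth.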

Other observations

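Chaperone levels were also taken in cells with markers of other types in the same sorts. These cells had passed the CD31+ Confetti+ sort, and absence of endothelial transcripts was not required of them. As doublets were not called, they may also hold EC transcripts, which was not tested. Hspb1 was at 12.5 ± 3.87 UMIs per 10000 in healthy and 8.48 ± 0.861 in MI cells with pericyte or smooth muscle markers (SD, n = 4 mice each), 6.38 ± 2.54 and 5.23 ± 2.14 in cells with platelet or erythroid markers, and 2.21 ± 1.13 and 1.76 ± 0.562 in haematopoietic cells. Hsp90ab1 was at 18.7 ± 4.02 and 11.5 ± 0.675 in the pericyte or smooth muscle cells and at 11.5 ± 2.54 and 7.67 ± 0.601 in haematopoietic cells. Hsp90aa1 was at 5.90 ± 0.400 in healthy and 2.68 ± 0.337 in MI haematopoietic cells, and Hspa1a at 10.9 ± 2.04 and 4.69 ± 1.87. In pericyte or smooth muscle cells Hspa1a was at 14.1 ± 1.65 in healthy and 13.4 ± 3.19 in MI mice. In platelet or erythroid cells it was at 8.28 ± 3.18 and 7.03 ± 2.58, and Hsp90ab1 at 9.80 ± 2.48 and 8.09 ± 1.51. These values rest on 231 haematopoietic cells in healthy and 1229 in MI mice, and on 382 and 263 cells with pericyte or smooth muscle markers, and were not tested.

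In IEG-high EC, 5 of 13 other stress-inducible chaperones tested were higher and 3 lower than in IEG-low EC, against 13.8% and 17.8% of all genes, and of 7 TRiC genes none was higher and 1 was lower. In arterial cells, 5 of 12 of the stress-inducible list were higher and 2 lower, against 15.6% and 16% of all genes.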
